A study of Mus musculus with 4 samples.

Results

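The matricellular proteins and fibronectin were examined in cultured hair follicle mesenchyme as 10 genes chosen by name, Thbs1, Thbs2, Thbs3, Tnc, Tnxb, Tnn, Postn, Sparc, Sparcl1 and Fn1. Each symbol matched 1 row of the count table, which lists 51826 genes. All 10 passed the minimum set on raw counts, a mean of 10 over the libraries, as did 16734 genes in total. The rule uses the names alone and no measured value, although the names were chosen with earlier results of these data known.

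RNA was sequenced from dermal papilla cells (DPCs), which sit at the base of the hair bulb, and dermal sheath cells (DSCs), which wrap the follicle. Per the study's methods, both were grown in DMEM from the vibrissa (whisker) follicles of EGFP-transgenic mice a few weeks of age, and the labels give their genotype as WT. Low passage means passage 3 and high passage means passage 9, and each cell type at each passage is 1 library. The study examined how such cells home to follicles after injection, and it asked which expression differences go with passage. All groups had been expanded in culture, no freshly isolated cells are among the samples, and how many animals or cultures stand behind a library is not stated in the sources used here. With 1 library per group there is no replicate error, so differences between 2 groups carry no test. An additive model over all 4 libraries is given below, and its error does not come from replicates. A difference of 4-fold or more, the threshold the study used, is called below, and intervals are 95% counting intervals that compare 2 libraries and not 2 conditions.

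Matricellular proteins are secreted into the matrix but serve mainly to tune how cells attach, move and respond to growth factors, rather than to bear load. Fibronectin differs from them in that it is assembled by integrins into fibrils, on which collagens and several matricellular proteins are laid down. In skin the group is known for its part in wound repair, and tenascin-C and periostin are well known products of activated dermal fibroblasts.

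The total count per library lay between 34981284 and 47604059. Across the 16734 genes, high-passage DPCs had the lowest correlations with the passage 3 libraries, with a Spearman's rho of 0.929 with DPCs and 0.925 with DSCs. Their rho with high-passage DSCs was 0.952, the same as that between low-passage DPCs and high-passage DSCs, while the passage 3 libraries correlated at 0.971 and the DSC libraries at 0.969. Mitochondrial genes took 7.88% of the counts of high-passage DPCs and between 4.27% and 5.65% elsewhere. Markers of cultured fibroblasts were detected for 9 and 8 of 9 genes in DPCs at passages 3 and 9 and for 8 and 9 in DSCs, with Lum at 0 where 8 were detected, and their summed level was 7657 CPM (counts scaled to library size) in high-passage DPCs against 19600 to 27040 in the others. Of 12 dermal papilla markers, 10, 10, 9 and 11 had a count in the same order and Wif1 was at 0 in all libraries. The summed level of this list was 1045 CPM in DPCs and 666.7 CPM in DSCs at passage 3, but 778 CPM and 1165 CPM at passage 9. These sums lean on Crabp1, with 22409 and 14584 counts in DPCs and 1518 and 20405 in DSCs. The list totals were 36935 and 27216 counts in DPCs and 25855 and 55472 in DSCs. Of the 8 markers tested, 4 were higher in DPCs at passage 3 and 4 at passage 9. Sox2, a transcription factor of the papilla, had 1677 and 1491 counts in DPCs and 269 and 178 in DSCs, whereas the adhesion molecule Ncam1 had 3642 and 1673 in DPCs and 11755 and 15584 in DSCs. Lef1, which mediates Wnt signals, had 508 and 2 counts in DPCs and 101 and 55 in DSCs. Sox2 and Lef1 were thus higher in DPCs at passage 3 and Ncam1 was lower. At passage 9 Sox2 was higher in DPCs and Ncam1 and Lef1 were lower, so the markers did not agree on the label at either passage. Of 7 dermal sheath markers, 6, 6, 7 and 7 had a count, and their summed level was 9824 CPM in DPCs and 7345 CPM in DSCs at passage 3, and 3582 CPM and 6237 CPM at passage 9. This list was thus higher in DSCs at passage 9 and not at passage 3.

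Markers of other cell types had few counts. Keratinocyte markers (3 or 4 of 10 with a count) summed to between 2.434 and 50.42 CPM, with Krt5 and Krt14 at 0 in every library, and melanocyte markers (2 of 7 with a count) to between 11.63 and 29.04 CPM, with Dct and Tyr at 0 in every library. Immune markers had 7 or 8 of 9 genes with a count and summed to between 67.24 and 170.7 CPM, the lower values being those of the high-passage libraries. Schwann cell markers had 10 of 10 genes with a count at low passage, with sums of 16.67 CPM in DPCs and 37.49 CPM in DSCs, and 5 or 6 at high passage, with sums of 7.032 and 10.57 CPM, where Sox10 and Ngfr were at 0. Endothelial markers (2 to 7 of 8 with a count) summed to between 1.239 and 7.916 CPM, with Cldn5 at 0 in all libraries but low-passage DSCs. Skeletal muscle markers (2 or 3 of 8 with a count) summed to 1.201 CPM in high-passage DPCs and to between 24.18 and 48.12 CPM in the others, with Myod1 and Pax7 at 0 in all. Acta1 had 1495 of the 1521 counts in low-passage DPCs and 13 of 42 in high-passage DPCs. In DSCs it had 1837 of 1866 at passage 3 and 1083 of 1151 at passage 9. Likewise Dsp had 2307 of the 2400 keratinocyte counts of high-passage DSCs, and Mitf 980 of the 1016 melanocyte counts of high-passage DPCs. The part of other cell types in the results below was not tested.

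The 10 genes covered a wide range of levels. In FPKM, which corrects for transcript length, Fn1 reached 3077, Thbs1 2789 and Sparc 2522, all in low-passage DSCs, while Tnxb did not exceed 1.23. By count, Thbs1 was the most abundant gene of the whole table in low-passage DPCs and in high-passage DSCs, and Fn1 held that place in low-passage DSCs. Together the 10 genes took 3.27% of all counts at passage 3 and 1.65% at passage 9 in DPCs, and 4.59% and 4.21% in DSCs. High-passage DPCs were thus the library with the smallest share, and Thbs1, Fn1 and Sparc made up most of it in every library.

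**Figure D1:**
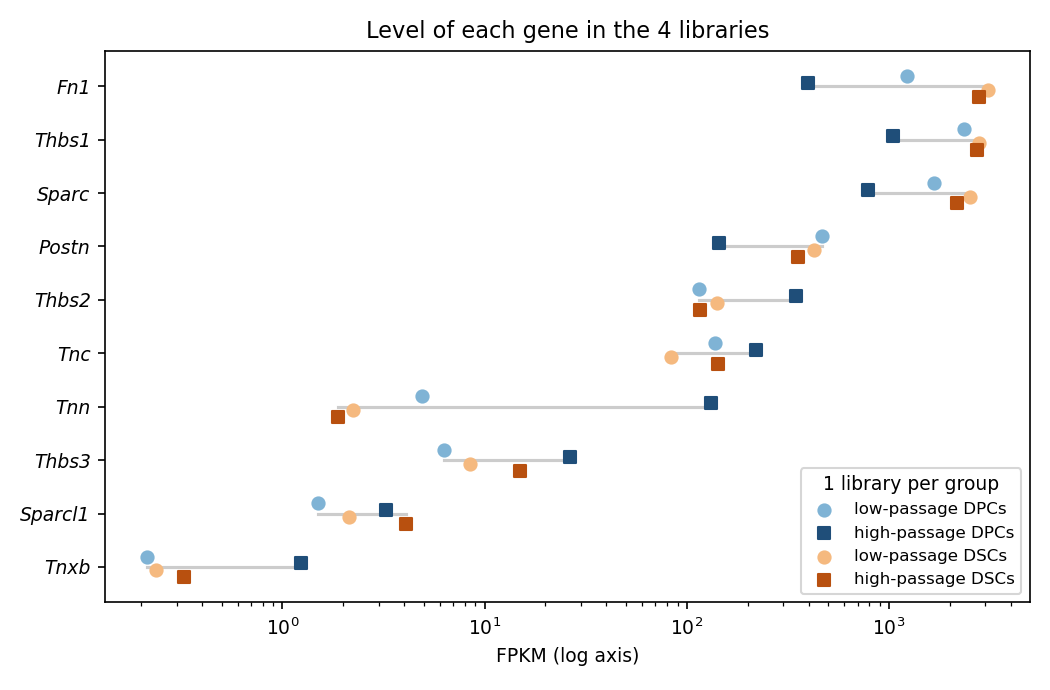
Level of each of the 10 genes in FPKM (log axis), with 1 point per library and a grey line over the range. The square of high-passage DPCs is the lowest of the 4 points for Fn1, Thbs1, Sparc and Postn and the highest for Thbs2, Tnc, Tnn, Thbs3 and Tnxb.

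**Figure D2:**
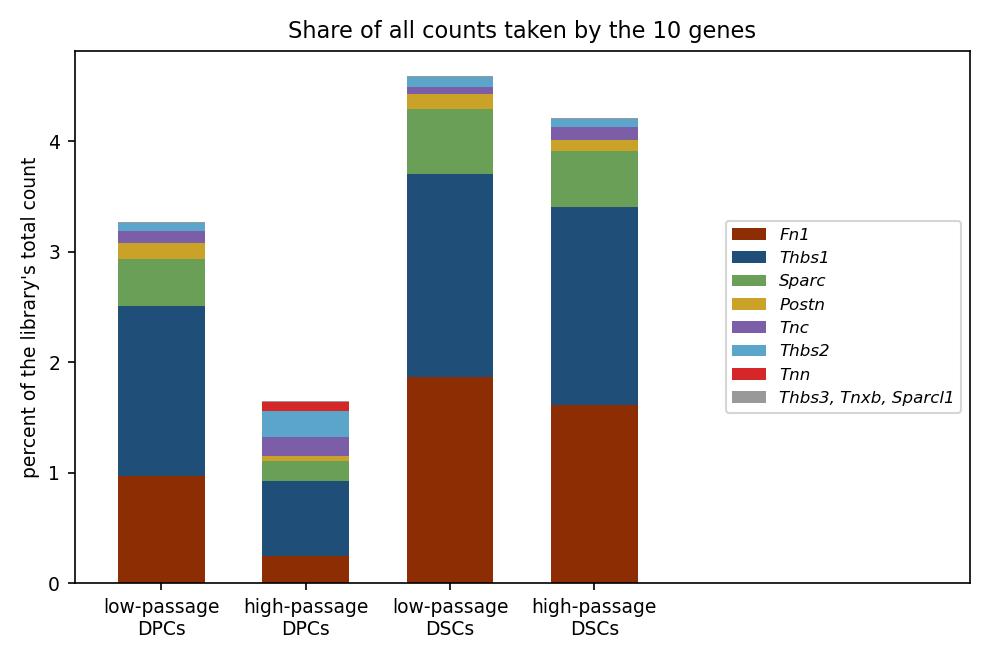
Percent of the total count of each library taken by the 10 genes, stacked by gene, with 1 bar per library. The bar of high-passage DPCs reaches 1.65%, against 3.27% to 4.59% in the others, and the red segment of Tnn is visible there alone.

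The deposited positions are those of build GRCm38. Thbs1 spans chr2:118111876-118127133, Thbs2 chr17:14665500-14694262 and Thbs3 chr3:89215180-89226837. The tenascins lie at chr4:63959785-64047015 (Tnc), chr17:34670535-34719815 (Tnxb) and chr1:160085029-160153580 (Tnn). Postn spans chr3:54361109-54391037, Sparc chr11:55394500-55423183, Sparcl1 chr5:104079111-104113733 and Fn1 chr1:71585520-71653200. In GENCODE M21, exons of another gene on the opposite strand cover 3.42% of the exonic bases of Thbs1 (Gm29233), 2.26% of those of Tnc (8030451A03Rik) and 2.5% of those of Fn1 (Apol7d). Thbs2, Tnn, Postn and Sparcl1 shared no exonic base and no 50-base window with another gene. Reads from such shared stretches cannot be assigned to 1 of the genes with certainty.

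The first comparison asked which of these genes differed between high-passage and low-passage DPCs. Tenascin-N, thrombospondin-3 and tenascin-X were at least 4-fold higher at passage 9, and none of the 10 was 4-fold lower. With log2(FPKM + 1) thrombospondin-3 (1.91) and tenascin-X (0.88) came under that threshold. At a smaller threshold of 2-fold, 5 genes were higher (Thbs2, Thbs3, Tnxb, Tnn and Sparcl1) and 4 were lower (Thbs1, Postn, Sparc and Fn1), which left Tnc alone within 2-fold. Of all genes tested, 5.58% were 4-fold higher and 4.36% 4-fold lower, and 16.1% were 2-fold higher and 15.0% 2-fold lower. The median log2 fold change of the 10 genes was 0.91, beside 0.03 over all genes, with 6 genes above 0 and 4 below. In cultured cells sequenced in bulk, fewer cells that express a gene and less RNA of it per cell cannot be told apart.

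Tnn showed the largest difference. It encodes tenascin-N, also called tenascin-W, a matrix protein known from bone and from stroma around tumours. Its raw count was 1109 at passage 3 and 29674 at passage 9 in DPCs, and 540 and 571 in DSCs, which corresponds to 4.892, 131.3, 2.226 and 1.888 FPKM. High-passage DPCs were thus far above the other libraries, and the DSC libraries were close to each other. With passage in DPCs Tnn was 27.4-fold higher (log2 fold change 4.78, interval 4.69 to 4.87), and 0.849% of all genes had a larger change in either direction.

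Tnxb, which encodes tenascin-X, a protein that binds collagen fibrils and whose loss makes skin hyperextensible, had low counts. They were 105 at passage 3 and 583 at passage 9 in DPCs, and 126 and 201 in DSCs. The level never exceeded that of the weakest of the other genes, Sparcl1 in low-passage DPCs at 1.504 FPKM. Tnxb was 5.61-fold higher at passage 9 in DPCs (log2 fold change 2.49, interval 2.21 to 2.82). Of the 50-base windows of its transcripts, 6.41% also occur in Tnxa, a partial copy beside it, so its counts are uncertain to that extent.

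Tnc encodes tenascin-C, the member of the family that is induced in healing wounds. It had 38154 counts at passage 3 and 61326 at passage 9 in DPCs, and 25383 and 53885 in DSCs. Unlike the other tenascins it was higher at passage 9 in both cell types by a similar amount, by a log2 fold change of 0.72 (interval 0.70 to 0.74) in DPCs and of 0.82 (interval 0.80 to 0.84) in DSCs. Both lie within 2-fold.

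The thrombospondins, trimeric or pentameric glycoproteins that bind integrins and growth factors, did not move as 1 group. Thbs1, whose product inhibits the growth of blood vessels and activates latent TGF-beta, had 545282 counts at passage 3 and 237732 at passage 9 in DPCs, and 708912 and 854248 in DSCs. Its log2 fold change with passage in DPCs was -1.16 (interval -1.17 to -1.15). High-passage DPCs were lowest, although Thbs1 remained the sixth gene of that library by count.

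Thbs2 encodes the closest relative of Thbs1, which shares its trimeric form and its effect on vessels but does not activate TGF-beta. It had 27052 counts at passage 3 and 80395 at passage 9 in DPCs, and 36643 and 36769 in DSCs. High-passage DPCs were the highest, and the other libraries lay near each other. Thbs2 was 3.05-fold higher at passage 9 in DPCs (log2 fold change 1.61, interval 1.59 to 1.63).

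Thbs3 encodes a pentameric thrombospondin found in skeletal tissue. Its counts were 678 at passage 3 and 3147 at passage 9 in DPCs, and 1098 and 2365 in DSCs, so that both high-passage libraries were above both low-passage libraries. It was 4.75-fold higher at passage 9 in DPCs (log2 fold change 2.25, interval 2.13 to 2.37). Exons of Mtx1 on the opposite strand cover 6.59% of its exonic bases, and whether reads were counted by strand is not stated in the sources used here.

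The 4 thrombospondin and tenascin genes that were at least 2-fold higher at passage 9 in DPCs are shown with the 250 bases before their transcription start, since they were higher together in that library. The sequences are from RefSeq (GRCm38.p6), whose promoter table held 7 of the 10 genes, and capitals mark matches on either strand to any of 5 motifs. These are TATAAA for the TATA box, CCAAT for the factor NF-Y, GGGCGG for the factor Sp1, TGANTCA for the factor AP-1 and CAGACA for SMAD proteins.
Tnn (chr1:160153576-160153825, minus strand): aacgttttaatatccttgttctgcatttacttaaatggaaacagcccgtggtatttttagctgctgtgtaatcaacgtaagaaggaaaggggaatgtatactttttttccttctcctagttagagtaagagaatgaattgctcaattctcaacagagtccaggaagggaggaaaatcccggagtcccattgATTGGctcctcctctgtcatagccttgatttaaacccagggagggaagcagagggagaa
Thbs2 (chr17:14694263-14694512, minus strand): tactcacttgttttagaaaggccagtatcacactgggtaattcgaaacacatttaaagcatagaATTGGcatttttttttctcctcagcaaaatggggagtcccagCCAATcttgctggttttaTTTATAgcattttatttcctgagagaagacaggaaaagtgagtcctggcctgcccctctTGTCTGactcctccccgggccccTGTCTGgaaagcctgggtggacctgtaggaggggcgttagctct
Thbs3 (chr3:89214930-89215179, plus strand): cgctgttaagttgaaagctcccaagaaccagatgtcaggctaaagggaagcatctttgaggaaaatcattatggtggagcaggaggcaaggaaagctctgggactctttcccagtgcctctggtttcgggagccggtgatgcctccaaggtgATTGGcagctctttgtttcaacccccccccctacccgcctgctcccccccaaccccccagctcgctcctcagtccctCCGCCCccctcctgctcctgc
Tnxb (chr17:34670285-34670534, plus strand): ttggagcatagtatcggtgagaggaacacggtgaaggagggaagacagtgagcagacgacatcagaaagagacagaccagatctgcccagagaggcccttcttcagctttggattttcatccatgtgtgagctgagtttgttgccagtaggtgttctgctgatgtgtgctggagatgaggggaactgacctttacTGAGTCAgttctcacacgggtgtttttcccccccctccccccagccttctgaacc
CCAAT was present in the windows of Tnn, Thbs2 and Thbs3, with its first base at -59, at -186 and -144, and at -98 from the start, and not in that of Tnxb. It occurs in 33.8% of the 32851 promoters of the table cut to the same length. TATAAA was found in the Thbs2 window at -126 and CAGACA at -67 and -44, against 12.4% and 17.1% of all promoters. The Thbs3 window held GGGCGG at -21 (32.7% of all promoters) and the Tnxb window TGANTCA at -55 (6.75% of all promoters). No motif of the 5 was shared by all 4 windows. Such matches describe the letters only. Among the genes that were lower at passage 9 in DPCs, the window at the second start of Postn held TATAAA at -26 and that of Sparc CAGACA at -36.

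Periostin, an integrin-binding protein that promotes collagen crosslinking, is encoded by Postn. It had 50296 counts at passage 3 and 15222 at passage 9 in DPCs, and 51198 and 50114 in DSCs. The level in high-passage DPCs was thus the only one set apart. With passage in DPCs the log2 fold change was -1.69 (interval -1.71 to -1.66).

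Sparc, or osteonectin, binds collagen and is needed for normal fibril formation. Its counts were 149565 at passage 3 and 64248 at passage 9 in DPCs, and 229007 and 240903 in DSCs. The DSC libraries were the highest, and the log2 fold change in DPCs was -1.18 (interval -1.20 to -1.17). Its homologue Sparcl1, or hevin, which is best known from synapses and vessels, was low throughout, with 166 counts at passage 3 and 351 at passage 9 in DPCs, and 257 and 600 in DSCs. Sparcl1 was higher at passage 9 in both cell types, by 1.11 (interval 0.85 to 1.39) on the log2 scale in DPCs and by 0.95 (interval 0.74 to 1.17) in DSCs.

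Fn1 had 342876 counts at passage 3 and 84614 at passage 9 in DPCs, and 725223 and 764954 in DSCs. The corresponding FPKM values were 1222, 395.7, 3077 and 2771. Both DSC libraries were above both DPC libraries, and high-passage DPCs were lowest. The log2 fold change with passage in DPCs was -1.98 (interval -1.99 to -1.97), a 3.95-fold difference that lies just short of the 4-fold threshold. It passed the threshold when counts were scaled by library totals or no minimum count was set. From log2 FPKM it was smaller, at -1.63 with a pseudocount of 0.1 and -1.62 with 1.

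The second comparison asked the same of DSCs. None of the 10 genes was 4-fold apart between passages, and none was even 2-fold apart. Among all genes, 2.67% were 4-fold higher and 1.16% 4-fold lower at passage 9, and 8.55% were 2-fold higher and 6.21% 2-fold lower. The median over the 10 genes was -0.09, with 5 genes above 0 and 5 below, beside a median of 0.00 over all genes. The largest changes were those of Sparcl1 (0.95), Thbs3 (0.84, interval 0.74 to 0.95) and Tnc (0.82).

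The other changes in DSCs were small. The log2 fold change was -0.26 (interval -0.28 to -0.24) for Thbs2, -0.30 (interval -0.31 to -0.28) for Postn, and -0.19 for both Sparc and Fn1. Tnxb differed by 0.40 (interval 0.08 to 0.74) and Tnn by -0.18 (interval -0.36 to -0.01). The intervals of both reached past 0 when counts were halved, as would be needed if both mates of a read pair had been counted. For Thbs1 the fold change was 0.0039 (interval -0.0006 to 0.0085), which gives no direction at this depth, and its sign changed with the scaling.

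**Figure D3:**
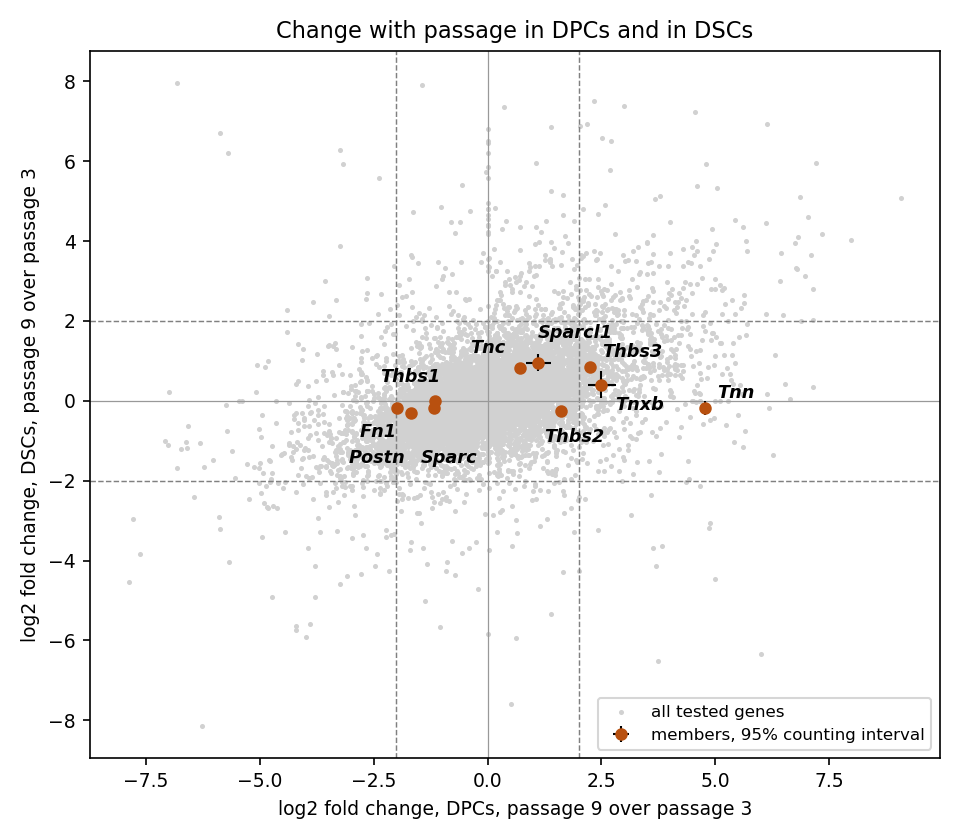
Log2 fold change of passage 9 over passage 3 in DPCs (x axis) and in DSCs (y axis) for the 16734 tested genes (grey) and the 10 genes (orange, bars giving 95% counting intervals), with dashed lines at 4-fold. The 10 genes are spread along the x axis from -1.98 (Fn1) to 4.78 (Tnn) and lie between -0.30 and 0.95 on the y axis.

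The passage changes of DPCs and DSCs were then set side by side, without a test since 4 libraries leave no degree of freedom for an interaction. The change in DPCs minus that in DSCs was 4.96 for Tnn on the log2 scale, the 50th from the top among all genes, 2.09 for Tnxb, 1.87 for Thbs2 and 1.41 for Thbs3. On the other side it was -1.79 for Fn1, -1.39 for Postn, -1.17 for Thbs1 and -0.99 for Sparc. For Sparcl1 (0.16) and Tnc (-0.10) the cell types were nearly alike. Of all genes, 88.6% had a difference larger in size than that of Tnc and 0.645% had one larger than that of Tnn.

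When cell type and passage were fitted as additive terms over the 4 libraries, edgeR's quasi-likelihood test with Benjamini-Hochberg adjustment called 0 of 16734 genes for passage and 0 for cell type. At an unadjusted p under 0.05 there were 2822 and 1381 genes, and DESeq2 called 955 and 496. The single residual degree of freedom of this model comes from how far DPCs and DSCs respond differently, not from replicate cultures. For passage the adjusted p of the 10 genes by edgeR ranged from 0.225 for Thbs3 to 0.619 for Thbs1. Thbs3 was the one member that DESeq2 called for passage, with a log2 fold change of 1.54 ± 0.42 (SE) and an adjusted p of 0.00799. For cell type DESeq2 called Fn1 alone, which was lower in DPCs with a log2 fold change of -1.93 ± 0.44 (SE) and an adjusted p of 0.000836, whereas edgeR gave an adjusted p of 0.536.

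The third comparison set DPCs against DSCs at passage 3. No member was 4-fold apart, beside 1.52% of all genes that were 4-fold higher and 2.77% that were 4-fold lower in DPCs. Tnn was 2-fold higher in DPCs and Fn1 2-fold lower, where the shares of all genes were 5.43% and 7.86%. Both lie close to that threshold. Fn1 was at -0.95 when scaled by library totals but at -1.33 on both log2 FPKM scales, and Tnn was at 0.87 with log2(FPKM + 1). The log2 fold change of Tnn was 1.08 (interval 0.93 to 1.23) and that of Fn1 -1.04 (interval -1.04 to -1.03). Tnc was higher in DPCs by 0.63 (interval 0.61 to 0.65), while Thbs1 (-0.34), Thbs2 (-0.39), Thbs3 (-0.65), Sparc (-0.57) and Sparcl1 (-0.58) were lower. The intervals of Postn (0.02) and Tnxb (-0.22) included 0. The median was -0.36, beside 0.00 over all genes.

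At passage 9 the cell types were further apart. Tnn was 65.7-fold higher in DPCs than in DSCs (log2 fold change 6.04, interval 5.92 to 6.17), and 0.179% of all genes had a larger difference. Fn1 was 7.12-fold lower in DPCs (log2 fold change -2.83, interval -2.84 to -2.82). These were the only members past 4-fold, 1 in each direction, beside 2.5% of all genes higher and 3.91% lower. At 2-fold, Tnn, Tnxb and Thbs2 were higher and Thbs1, Postn, Sparc and Fn1 lower, where 9.11% and 11.0% of all genes were. Tnxb differed by 1.87 (interval 1.65 to 2.12) and Thbs2 by 1.47 (interval 1.46 to 1.49). The lower genes were Thbs1 (-1.50), Postn (-1.37) and Sparc (-1.56). The median over the 10 genes was 0.05, beside -0.01 over all genes.

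Both comparisons with differences past 4-fold include the high-passage DPC library, and no member was past 4-fold in the comparisons that do not include it. When that library was left out of the scaling, the counts of members past 4-fold in those comparisons were again 0. This changed only the scaling of the other libraries, with Tnxb in DSCs at 0.4034 in place of 0.4032, so it adds no separate support. All comparisons share libraries, so they are not independent of each other. At passage 3 Thbs2 and Thbs3 were lower in DPCs than in DSCs, and at passage 9 both were higher in DPCs.

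**Figure D4:**
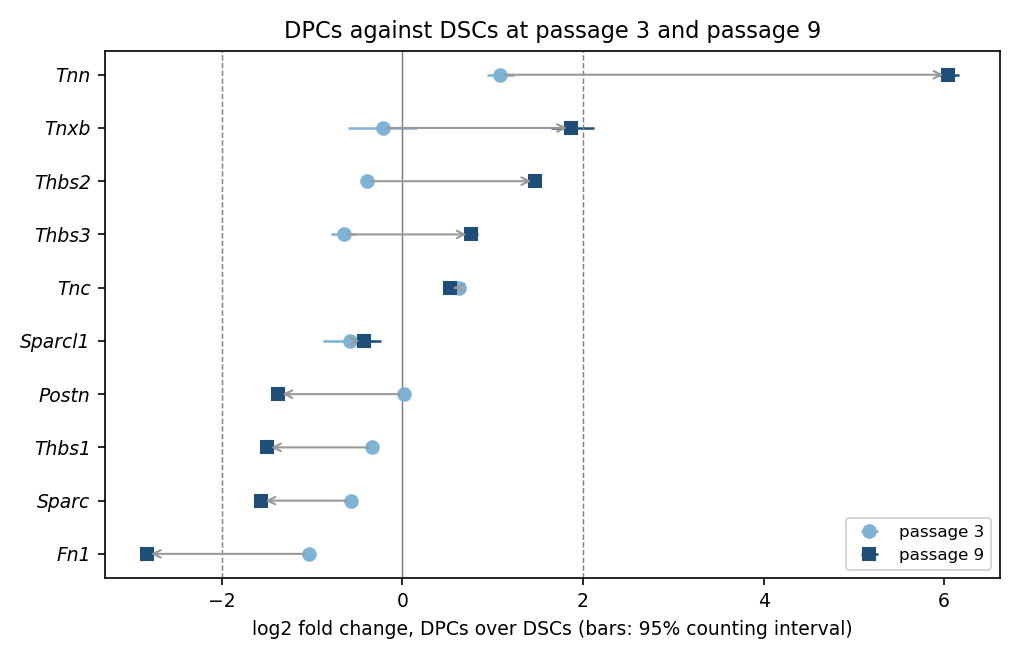
Log2 fold change of DPCs over DSCs for each of the 10 genes at passage 3 (circles) and passage 9 (squares), with 95% counting intervals as bars, arrows from passage 3 to passage 9 and dashed lines at 4-fold. The squares of Tnn (6.04) and Fn1 (-2.83) lie beyond the dashed lines, and those of Tnc and Sparcl1 lie close to their circles.

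For the 4 members whose log2 CPM spanned at least 2 over the libraries, the genes with the most similar profile were sought by the Euclidean distance of centred log2 CPM over the 4 libraries. This is a description over 4 points. Nearest to Thbs3 were Ank, a pyrophosphate transporter (distance 0.085), and Dnhd1 (0.132). Nearest to Tnxb were Hsd11b1, the enzyme that regenerates active glucocorticoid (0.167), and Lonrf2 (0.174). Nearest to Fn1 were Itga11, a collagen-binding integrin subunit (0.184), and Ctgf, a matricellular protein induced by TGF-beta (0.254). Tnn had no close neighbour, the nearest being Hecw2, a ubiquitin ligase (0.918), and Gm20661 (0.960).

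Genes of the same biology that are not members were counted by list. Of 18 other matricellular proteins, 16 were tested. With passage in DPCs Tnr and Spp1 were 4-fold higher and Wisp1, Wisp2 and Smoc1 4-fold lower (median -0.27), beside 5.58% and 4.36% of all genes. In DSCs Tnr, Spp1 and Spock3 were higher and none was lower (median 0.16), beside 2.67% and 1.16%. In DPCs Tnr had 2 counts at passage 3 and 111 at passage 9, and Smoc1 had 13 and 0. Spock3 had 0 and 377 in DSCs, so the folds of these genes rest on values near 0. Spp1 encodes osteopontin, a mineral-binding cytokine, and its log2 fold changes were 2.40 and 2.24. Between the cell types 1 gene was 4-fold higher and 6 were lower in DPCs at passage 3 (median -0.85), and 1 was higher and 7 were lower at passage 9 (median -1.72). Among all genes the calls lower in DPCs also outnumbered those higher, at 2.77% against 1.52% at passage 3 and 3.91% against 2.5% at passage 9, and the list was not tested against them. With log2(FPKM + 1), 46.9% of the genes called at passage 3 and 50.2% at passage 9 were higher in DPCs. Thbs4, a pentameric thrombospondin of tendon and muscle, had 313 and 887 counts in DPCs at passages 3 and 9 and 41307 and 60793 in DSCs, and it was lower in DPCs by log2 fold changes of -6.99 and -5.75. Its relative Comp had 66 and 116 counts in DPCs and 3062 and 4613 in DSCs. Nov, a CCN family protein, was also lower in DPCs (-3.62 and -3.77), whereas Smoc2, a relative of Sparc, was the gene higher there, with 2823 and 6375 counts against 200 and 381. Tnr, Spp1, Wisp1, Wisp2, Smoc1 and Spock3 were named after their values were seen.

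Of 17 receptors of the members, 16 were tested. In DPCs Itga8 was 4-fold higher at passage 9 and Itga5 and Cd36 were 4-fold lower (median 0.32), where 5.58% and 4.36% of all genes were. In DSCs Itga4 and Itga8 were higher (median 0.24), beside 2.67% of all genes. The list was not tested against these shares. Itga8, whose product pairs with beta-1 integrin to bind fibronectin and tenascins, had 6837 and 34714 counts in DPCs at passages 3 and 9 and 1674 and 23287 in DSCs. It is also on the list of dermal sheath markers. Itga5, the subunit of the classical fibronectin receptor, differed by -2.08 in DPCs. Itga4 and Itga8 were 4-fold higher in DPCs than in DSCs at passage 3 (median 0.04), beside 1.52% of all genes. None of the receptors was 4-fold apart at passage 9 (median -0.16). Cd36, which binds Thbs1, had 63 counts in low-passage DPCs and 6 in high-passage DPCs and was named after its values were seen.

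None of 15 tested genes of the TGF-beta axis was 4-fold apart with passage in either cell type, with medians of -0.14 in DPCs and 0.09 in DSCs. The shares of all genes were 5.58% higher and 4.36% lower in DPCs, and 2.67% and 1.16% in DSCs. Ltbp2, a protein of elastic microfibrils, was the gene 4-fold apart at passage 3 (-2.52, lower in DPCs), where 2.77% of all genes were 4-fold lower. All 11 partners in fibronectin and matrix assembly were below 0 with passage in DPCs, with a median of -1.36, and Loxl2, Col3a1 and Col1a1 were 4-fold lower. Among all genes 51.3% were above 0 and 4.36% were 4-fold lower there, and the list was not tested against them. Loxl2, a collagen-crosslinking lysyl oxidase, had 29922 counts in low-passage DPCs and 2208 in high-passage DPCs, a log2 fold change of -3.72. In DSCs none of the partners was 4-fold apart (median -0.26). Between the cell types none was 4-fold apart at passage 3 (median -0.19). At passage 9 Tgm2, Loxl2, Col1a1 and Col3a1 were 4-fold lower in DPCs (median -1.53), beside 3.91% of all genes. Col1a1, Col1a2 and Col3a1 are also on the list of fibroblast markers.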

How the data were processed

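RNA was measured in 4 libraries, 1 each of low-passage (3rd) and high-passage (9th) DPCs and DSCs. For all libraries the authors deposited raw counts by gene, whole numbers without normalization. They also deposited FPKM values, which the authors normalized for transcript length and depth. Poly-A selection and paired-end Illumina sequencing are described in the study's methods, while the labels name another library kit. The submitters' processing notes name Bowtie 0.12.2 and the builds mm8 and mm9 without saying where each was used. The deposited gene positions match GRCm38, with 94.2% of 51633 matched IDs identical to GENCODE M21. The counting program and its use of strand are not given in the sources used here.

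Counts were scaled with TMM in edgeR 4.0.16 (R 4.3.3, limma 3.58.1). A minimum of 10 was set on the mean raw count, which 16734 genes passed. Log2 CPM (prior count 2) was subtracted to give fold changes, and a difference of 2 or more on the log2 scale (4-fold) was called. Intervals of 95% come from the exact Clopper-Pearson interval of the share of 1 library in the counts of 2. They cover counting error only. Genes with 2 counts (1339 to 1541 per library) outnumbered those with 3 (558 to 607), a pattern that arises when both mates of a pair are counted, so each interval was also computed from halved counts. The additive model of cell type and passage used edgeR's quasi-likelihood test, with DESeq2 1.42.0 as the alternative and Benjamini-Hochberg adjustment in both, and the scripts were tested on simulated counts. Alternatives were library totals, upper quartiles or DESeq2 size factors as scaling, other prior counts, no minimum or a minimum of 100, and log2 FPKM with a pseudocount of 0.1 or 1.

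All 10 members are named. From each list of related genes, at most 4 past 4-fold with a mean count of at least 100 are named by largest change, and for likeness the 2 nearest genes to each member that spans at least 2 on the log2 scale. The members and lists were chosen with earlier results of these data known.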

Additional observations from a re-analysis of the deposited data

Results flagged for a closer look

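The changes with passage of 2 genes lay on opposite sides of 0 in DPCs and DSCs, by intervals that did not include 0. For Tnn the log2 fold change was 4.78 in DPCs and -0.18 in DSCs, a difference of 4.96. For Thbs2 it was 1.61 in DPCs and -0.26 in DSCs, a difference of 1.87. Neither difference was tested, since there was 1 library per group, and the interval of Tnn in DSCs included 0 when counts were halved. The opposite directions of Thbs2 held with halved counts.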

How the results depend on the processing

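Of the 40 fold changes of the members (10 genes in 4 comparisons), 39 kept their sign under all 9 alternatives, and 36 kept both their sign and their side of 4-fold. The sign of Thbs1 in DSCs changed. Thbs3 (1.91) and Tnxb (0.88) came under 4-fold in DPCs with log2(FPKM + 1), which left 1 member called there in place of 3, and Fn1 in DPCs ranged from -2.02 to -1.62. At 2-fold, Fn1 at passage 3 (-0.95 with library totals) and, with log2(FPKM + 1), Tnn at passage 3 (0.87), Sparcl1 (0.77) and Tnxb (0.88) in DPCs and Tnxb at passage 9 (0.75) came under the threshold. On the log2(FPKM + 1) scale the folds of low genes are smaller by construction. Over all genes, the number at least 4-fold apart was 1663 with passage in DPCs. It was 2622 with no minimum count, 758 with a minimum of 100 and 354 with log2(FPKM + 1). In DSCs it was 640, and it was 339 with a prior count of 10, 1254 with no minimum, 210 with a minimum of 100, 350 with log2(FPKM + 0.1) and 72 with log2(FPKM + 1). Between the cell types at passage 3 it was 719, and under the same alternatives 400, 1319, 301, 392 and 96. At passage 9 it was 1074, and 712 with a prior count of 10, 1805 with no minimum, 458 with a minimum of 100 and 211 with log2(FPKM + 1). With log2(FPKM + 1) the share of these genes that was higher in DPCs was 46.9% in place of 35.5% at passage 3 and 50.2% in place of 39.0% at passage 9. In the additive model, passage was called for 955 genes by DESeq2 and 0 by edgeR, and cell type for 496 genes by DESeq2, for 13 by edgeR with a minimum of 100 and for 0 otherwise. Leaving high-passage DPCs out of the scaling, an alternative chosen after seeing the data, gave 646 genes in DSCs and 721 at passage 3, and 0 members in both. No analysis paired by replicate was possible because each group has 1 library, so that the groups share fewer than 2 replicate numbers. The additive model compares the passages within each cell type, without replicates.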
